A study of Homo sapiens with 20 samples.

Results

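The genes described here were read at a far higher level in the WT Jurkat T lymphoblast line than in its CD47- derivative JinB8. They were chosen from the measured values. A gene was a member when its mean over the Jurkat libraries was at least 1 CPM (the count as a share of the library total, in parts per 1e6) and at least 8 times its mean over the JinB8 libraries. Gene names of the MAGE, zinc finger (ZNF), histone and T cell receptor segment families, and 7 further genes such as RAG1 and RAG2, were then set aside, which removed 15 of 86 genes. The remaining 71 members are 0.505% of the 14057 genes at 1 CPM or more in Jurkat, out of 60719 genes counted. By GENCODE version 44 they are 64 protein-coding genes, 5 long noncoding RNAs, 1 small nucleolar RNA and 1 unprocessed pseudogene. Since the choice rests on the difference between the lines, that difference is described below and not tested.

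RNA sequencing was performed on 20 libraries, 10 from Jurkat cells and 10 from JinB8, a somatic mutant of Jurkat selected for its lack of CD47. CD47 is a widely expressed surface receptor of the matrix protein thrombospondin 1 (TSP1). Untreated cells gave 1 library per line, taken at 1 h. The other libraries were taken at 1, 3 and 6 h, with 1 library per time for each of 3 treatments: plates coated with antibodies to CD3 and CD28 (CD3_CD28), the same plates with TSP1 at 1 µg/mL (CD3_CD28_TSP1), and TSP1 alone. Antibodies to CD3 and CD28 engage the T cell receptor complex and its costimulator. The anti-CD28 antibody was coated at 4 µg/mL, while the anti-CD3 dose is given as 2 µg/mL in the study's methods and as 2 mg/mL in the sample descriptions. All cells of both lines, untreated cells included, were kept in a serum-free medium with insulin, transferrin, selenite and hydrocortisone. Neither source says that libraries came from separate cultures, so p-values measure only the spread between these libraries. JinB8 is a single mutant line, and loss of CD47 cannot be told apart from other differences that arose between the lines.

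Library totals ran from 16107921 to 31737616 counts. CD47 transcripts were still present in JinB8, at 153 CPM (142 to 168) against 304 CPM (248 to 367) in Jurkat. The 11 T cell markers were read in every library, with means from 14.2 CPM (CD4) to 543 CPM (LCK) in Jurkat and from 20.8 to 640 CPM for the same genes in JinB8. CD28 (43.6 and 239 CPM), CD2 (41.8 and 121 CPM) and CD7 (17.3 and 43.7 CPM) had higher means in JinB8, as had the other markers except ZAP70 (212 and 120.4 CPM). Several members are better known from neurons, muscle, B cells or fibroblasts, so markers of other cell types were examined. Of the B cell markers, CD79A had 33 to 51.6 CPM in Jurkat libraries and 4.97 to 10.3 CPM in JinB8 libraries, and CD79B averaged 1.81 and 2.54 CPM. The defining genes MS4A1, PAX5 and CD22 had means of at most 0.129 CPM in either line. The 6 fibroblast markers summed to 1.81 to 7.34 CPM in Jurkat and 7.54 to 14.8 CPM in JinB8, and the 7 neuronal markers to 8.44 to 12.2 and 15.8 to 27.7 CPM. PDGFRB (means of 0.879 and 6.07 CPM) and COL1A1 (1.89 and 4.51 CPM) carried the first sum and TUBB3 (2.48 and 15.8 CPM) the second, while COL1A2, COL3A1, DCN, LUM, SYP, NEFL, NEFM and SYT1 had lower means in JinB8. Myeloid, epithelial and erythroid markers summed to at most 5.42 CPM in any library. The part of these marker differences in the results was not tested. In bulk RNA, fewer cells expressing a gene and less RNA per cell cannot be told apart.

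Lines derived from one leukemia can differ in whether a gene is read at all as well as in how strongly it is read. In mammals many gene starts lie in CpG islands, stretches rich in CpG dinucleotides, which are the main sites of DNA methylation. T lymphoblasts use Ikaros-family transcription factors, Src-family kinases, formins and Rac exchange factors for receptor signaling and shape, whereas SNAP25, RYR2 or KCNQ3 are best known from nerve and muscle.

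The 250 bases before the start of 5 members are shown because they cover the range of CpG content among the genes that differed most between the lines or were most abundant. Capitals mark CpG dinucleotides. The sequences are from RefSeq (GRCh38.p14) and are written 5′ to 3′ on the strand of the gene. The starts used can differ from the GENCODE version 44 gene spans. The KIT stretch and parts of the GBP1, SLC16A14 and GNB4 stretches lie within those spans. GNB4 lies at chr3:179451471-179451720 (minus strand, 37 CpG), PCDH19 at chrX:100410274-100410523 (minus, 21 CpG), KIT at chr4:54657707-54657956 (plus, 34 CpG), SLC16A14 at chr2:230068925-230069174 (minus, 4 CpG) and GBP1 at chr1:89065209-89065458 (minus, 2 CpG).
GNB4: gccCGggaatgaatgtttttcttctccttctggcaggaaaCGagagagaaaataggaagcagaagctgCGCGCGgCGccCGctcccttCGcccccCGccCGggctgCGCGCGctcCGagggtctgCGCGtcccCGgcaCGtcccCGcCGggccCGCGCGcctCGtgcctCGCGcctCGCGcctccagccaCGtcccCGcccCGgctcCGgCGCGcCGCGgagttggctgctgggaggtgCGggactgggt
PCDH19: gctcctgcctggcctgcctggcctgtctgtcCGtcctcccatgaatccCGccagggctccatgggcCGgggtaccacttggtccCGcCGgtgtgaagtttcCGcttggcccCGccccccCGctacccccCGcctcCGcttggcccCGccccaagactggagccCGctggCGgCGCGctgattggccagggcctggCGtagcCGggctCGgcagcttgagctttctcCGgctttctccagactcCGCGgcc
KIT: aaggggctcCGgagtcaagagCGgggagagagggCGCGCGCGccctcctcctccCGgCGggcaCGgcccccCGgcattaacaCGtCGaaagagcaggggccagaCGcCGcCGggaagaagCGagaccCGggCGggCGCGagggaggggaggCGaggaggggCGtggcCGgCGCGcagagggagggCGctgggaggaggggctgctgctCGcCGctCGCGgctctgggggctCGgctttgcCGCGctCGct
SLC16A14: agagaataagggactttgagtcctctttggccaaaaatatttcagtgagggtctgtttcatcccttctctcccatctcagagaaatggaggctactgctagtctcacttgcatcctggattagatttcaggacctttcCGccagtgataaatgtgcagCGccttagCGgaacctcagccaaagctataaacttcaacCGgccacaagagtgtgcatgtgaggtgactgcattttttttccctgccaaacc
GBP1: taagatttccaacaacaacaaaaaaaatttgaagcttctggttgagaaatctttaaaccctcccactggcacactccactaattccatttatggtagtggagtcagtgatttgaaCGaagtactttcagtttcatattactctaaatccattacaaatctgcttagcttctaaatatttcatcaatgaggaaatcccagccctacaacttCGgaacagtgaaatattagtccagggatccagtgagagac

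A promoter of 300 bases (250 before and 50 after the start) was matched for 48 of the 71 members and for 10697 tested genes. Members had a median of 19 CpG dinucleotides in this window against 26 for the tested genes, and a GC share of 62.2% against 65%. CpG-rich starts, with 15 or more CpG, made up 62.5% of members and 80.2% of tested genes. CpG-poor starts, with fewer than 5, made up 14.6% (7 members) and 6.95%. The 13 matched members whose Jurkat mean was at least 50 times the JinB8 mean had a median of 27 CpG, and 11 of them had 15 or more. The median was 17 for the other 35, and this difference was not tested. Among letter motifs searched on both strands, the E-box CACGTG was in 6.25% of member windows and 10.1% of all, the RUNX core TGTGGT in 10.4% and 9.76%, and the TATA-like TATAAA in 12.5% and 5.93%. The last was found in SLC16A14, GPR15, PHACTR2, HOXA10, PYGO1 and LONRF3. GPR15 also held TGTGGT, and LONRF3 also held CACGTG. A match describes letters within the window only. CpG methylation was not measured.

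Most members were weakly expressed even in Jurkat. The median of the members' Jurkat means was 2.94 CPM, compared with 22.6 CPM for all genes at 1 CPM or more. The mean was below 3 CPM for 37 members and reached 10 CPM for 13. In JinB8 the median of the means was 0.181 CPM, and SNORD3D, GBP1, ADD2, IKZF3, DPYD, BLK and EXPH5 kept means above 1 CPM there. The median ratio of the line means was 13.5, with 40 members under 16 and 16 members at 50 or more. In single libraries, where 3 counts amount to 0.0945 to 0.186 CPM, 113 of 710 JinB8 values were 0, spread over 33 members. No member was at 0 in all JinB8 libraries. For 66 members every Jurkat library exceeded every JinB8 library, beside 3.9% of all genes at 1 CPM or more in Jurkat. For 23 every Jurkat library was at least 8 times every JinB8 library, beside 0.249% of those genes. The choice used the same values, so nothing is read from these shares. The members with overlapping lines were SNORD3D, PHEX, NEGR1, SSUH2 and RAB13.

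**Figure D1:**
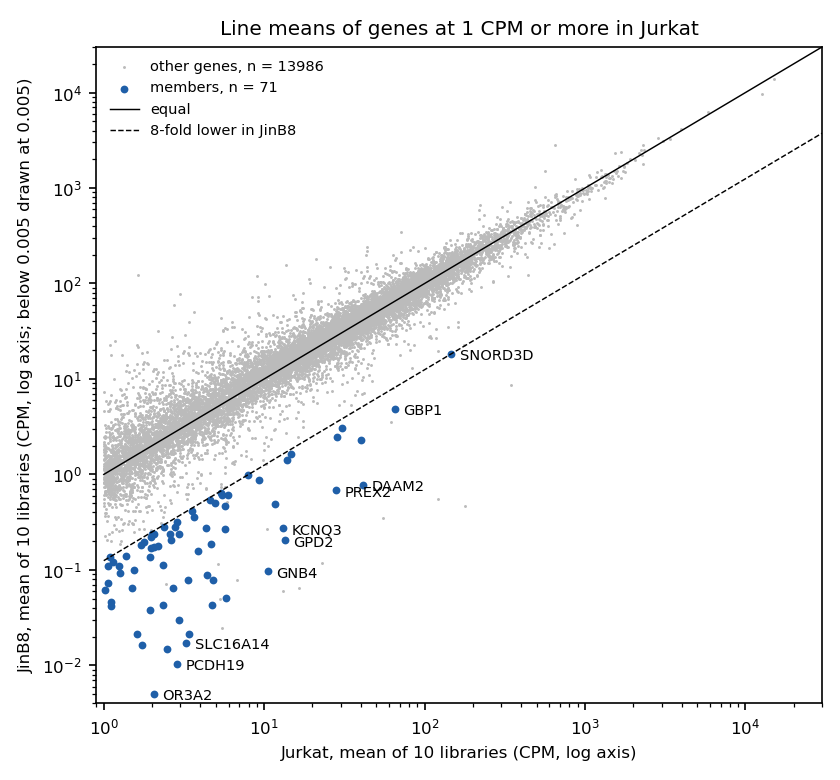
Mean CPM in JinB8 (vertical, log axis) against mean CPM in Jurkat (horizontal, log axis) for 14057 genes at 1 CPM or more in Jurkat, with the 71 members in blue. Members lie below the dashed 8-fold line and mostly at the low end of the Jurkat range, and the grey points under that line are the 15 genes set aside by name.

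Near the threshold the choice is a matter of small differences. Just inside were FSTL1 with a ratio of 8.02, SNORD3D with 8.05 and RAB13 with 8.1. Just outside were PTCRA, the pre-T cell receptor alpha chain, with 7.85, PARP15 with 7.63 and TTLL9 with 7.53.

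The most abundant coding member was GBP1, an interferon-inducible GTPase of immune defense. It spanned only 60.5 to 69.1 CPM over the Jurkat libraries (median 66.3), and 3.18 to 5.8 CPM in JinB8 (median 5.01). The SD was 3.1 CPM in Jurkat and 0.973 CPM in JinB8 (n = 10 libraries each), and the ratio of means was 13.5. No library of JinB8 lost GBP1 altogether. The gene spans chr1:89051882-89065360 on the minus strand (GRCh38, GENCODE version 44).

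Signaling and cytoskeletal genes made up 16 members. DAAM2 (chr6:39792298-39904877, plus strand), a formin that nucleates actin filaments and acts in Wnt signaling, had 22 to 65.9 CPM in Jurkat (median 31.4) and 0.441 to 1.04 CPM in JinB8. PREX2, an exchange factor that loads the GTPase Rac, had 19.9 to 34.5 CPM (median 28.9) and 0.294 to 1.74 CPM. The groups were far apart for both genes. ADD2, the beta adducin that caps actin at the membrane skeleton, had 22.9 to 40.3 CPM (median 27.5) against 1.94 to 4.97 CPM. BLK, a Src-family kinase best known from B cells, had 10.4 to 16.9 CPM (median 14.8) against 0.789 to 2.69 CPM. Both thus kept a low level in every JinB8 library. PHACTR2, a regulator of phosphatase 1 and actin, had 9.46 to 16.2 CPM against 0.0415 to 0.882 CPM.

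GNB4 showed one of the sharpest contrasts among the abundant members. It encodes a beta subunit of heterotrimeric G proteins, which carry signals from seven-pass receptors. Its level was 7.95 to 14 CPM in Jurkat (median 10.1) and 0 to 0.32 CPM in JinB8 (median 0.0758), from 23 counts over all 10 JinB8 libraries. The ratio of means was 109. The gene spans chr3:179396088-179451476, and its start is the first of the sequences above. The other 10 genes of this group, RASEF, GAS2, CNN3, CDC42EP4, CYTIP, RHOBTB1, IRS2, RAB13, TBC1D9 and STAC, had Jurkat means of 1.02 to 5.95 CPM. TMSB15A, a thymosin that binds actin monomers, had 2.84 to 4.37 CPM in Jurkat and 5 counts in JinB8, with 6 libraries at 0. It resembles TMSB15B in sequence, so reads could be split between both loci.

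Metabolic members were led by DPYD and GPD2. DPYD, the first and rate-limiting enzyme of pyrimidine breakdown, had 27.3 to 56.4 CPM in Jurkat (median 39.1) and 1.71 to 3.23 CPM in JinB8. GPD2, the mitochondrial glycerol-3-phosphate dehydrogenase of the glycerol phosphate shuttle, had 10.9 to 15.3 CPM (median 13.7) and 0.0882 to 0.285 CPM, a ratio of 65.8. The Jurkat SD of GPD2 was 1.24 CPM (n = 10), so its libraries lay close together. SPTLC3, a subunit of serine palmitoyltransferase, had 4.74 to 6.72 CPM against 0.217 to 0.869 CPM. The fatty acid elongase ELOVL3 had 0.882 to 2.61 CPM and 5 JinB8 counts in all. HSPA12A, MT1E, GALNT13, RNF212, LONRF3 and DERL3 had Jurkat means between 1.77 and 4.38 CPM, and MT1E belongs to a family of near-identical metallothionein genes among which reads can be split.

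Among transcription and RNA regulators, IKZF3 was the only one above 10 CPM in Jurkat. IKZF3 encodes Aiolos, an Ikaros-family zinc finger protein of lymphocytes. It had 12.5 to 42.8 CPM in Jurkat (median 33.7) and 1.39 to 6.02 CPM in JinB8 (median 2.07). TCEAL4, of the X-linked elongation factor A-like family, had 5 to 5.8 CPM against 0.378 to 1.16 CPM. HOXA10, a homeobox factor of the HOXA cluster, had 0.93 to 2.28 CPM in Jurkat and 4 counts in all of JinB8, with 6 libraries at 0. ZBTB16 (PLZF, a factor of innate-like lymphocytes), EBF2, PYGO1, SSUH2 and BICC1 had Jurkat means of 1.07 to 2.39 CPM.

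Genes of vesicle release and membrane traffic formed a small group of 4. EXPH5, an effector of the vesicle GTPase RAB27, had 9.01 to 26.1 CPM in Jurkat and 0.866 to 2.36 CPM in JinB8. SNAP25, the SNARE protein of synaptic vesicle fusion, had 3.74 to 6.44 CPM and 0 to 0.252 CPM. SH3GL2, the endophilin of synaptic endocytosis, had 3.59 to 6.34 CPM and 0 to 0.186 CPM. UNC13C, which primes vesicles for fusion, had 0.894 to 4.98 CPM in Jurkat and 3 counts in JinB8. The last 3 were at or close to 0 in most JinB8 libraries.

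Ion channels and transporters were KCNQ3, RYR2, ABCG2, SLC16A14, FXYD6 and KCNS3. KCNQ3, a voltage-gated potassium channel subunit, had 7.87 to 22.6 CPM in Jurkat and 0.083 to 0.56 CPM in JinB8. RYR2, the calcium release channel of heart muscle, had 6.12 to 14.3 and 0.386 to 1.81 CPM. The drug efflux pump ABCG2 had 2.93 to 6.49 and 0 to 0.684 CPM. SLC16A14, an orphan of the monocarboxylate transporter family, had 1.61 to 5.18 CPM in Jurkat and 4 counts in JinB8, with 7 libraries at 0. FXYD6 and KCNS3 averaged 1.5 and 1.11 CPM in Jurkat.

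Surface, secreted and matrix proteins also made up 16 members. By the ratio of pooled counts, OR3A2, PCDH19 and UNC13C had the largest values, which rest on 1 to 3 JinB8 counts. OR3A2, an olfactory receptor gene, had 1.07 to 3.03 CPM in Jurkat and 1 count in all JinB8 libraries, a pooled ratio of 492 with a 95% counting interval of 88 to 19482. PCDH19, a protocadherin, had 1.35 to 4.36 CPM and 2 counts, a pooled ratio of 338 (93.2 to 2796). UNC13C, named above, had a pooled ratio of 199 (67.8 to 968). These intervals cover counting error only, and they are wide because the JinB8 counts are so few. KIT, the receptor of stem cell factor, had 0.964 to 6.3 CPM in Jurkat (median 2.03) and 7 counts in JinB8, with 6 libraries at 0. FSTL1, a secreted glycoprotein, had 4.62 to 9.73 CPM against 0.208 to 2.57 CPM. CADM1, an immunoglobulin-like adhesion molecule, had 3.98 to 6.83 CPM against 0.122 to 0.56 CPM. The others in this group are SPINK2, NINJ2, ADTRP, PHEX, TUFT1, NEGR1, VCAN, C16orf89, SVEP1, GPR15 and GPC4, with Jurkat means of 1.25 to 5.36 CPM.

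**Figure D2:**
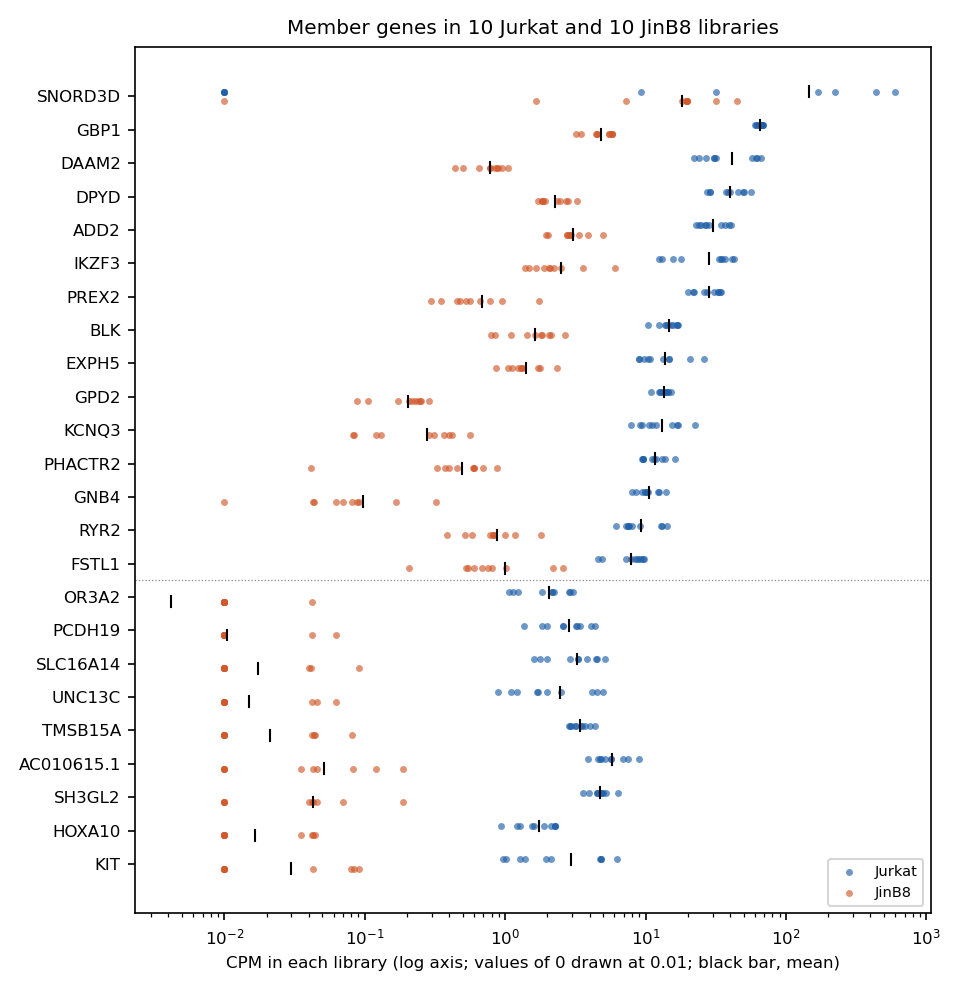
CPM in each of 10 Jurkat (blue) and 10 JinB8 (orange) libraries on a log axis, with values of 0 drawn at 0.01 and the mean as a black bar. Above the dotted line are the 15 members with the highest Jurkat mean, below it the members with the largest ratios that are not among them. Of the genes drawn, only SNORD3D overlaps between the lines.

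SNORD3D was the only member at 0 in some Jurkat libraries. It is a copy of the U3 small nucleolar RNA, one of several near-identical genes, and reads of such copies can be split or moved by the counting step. Its RNA carries no poly(A) tail, and the libraries were made with an mRNA kit. Its Jurkat values were 225 CPM in untreated cells at 1 h, then 439, 169 and 31.8 CPM in CD3_CD28 at 1, 3 and 6 h, and 594, 9.34 and 0 CPM in TSP1. In CD3_CD28_TSP1 it was 0 at all 3 times. In JinB8 it spanned 0 to 45.1 CPM. The mean of 147 CPM in Jurkat therefore describes few of its libraries. AC010615.1 is a pseudogene that overlaps ZNF738 and had 3.91 to 8.91 CPM in Jurkat against 11 JinB8 counts. The noncoding members AC009501.2, LINC00667, AC090578.3, AC104083.1 and AL390236.1 had Jurkat means of 1.14 to 2.96 CPM. CAPSL, a calcyphosine-like gene, and CFAP69, a ciliary and flagellar gene, had 3.88 and 1.12 CPM.

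Relatives of the members, taken from lists chosen with these members in view, were called in both directions. Among 101 tested relatives that are no members, edgeR's quasi-likelihood test with Benjamini-Hochberg adjustment over all 16327 tested genes called 32 higher and 24 lower in JinB8 and left 45 uncalled. Across all tested genes 40.4% were called, 19.8% higher and 20.6% lower. The median log2 fold change, JinB8 against Jurkat, was 0.04 for the 101 relatives and -0.01 for all genes. The adjusted p-values for relatives come from this fit, which holds no term for time or treatment. With libraries paired by treatment and time, 62 of the relatives and 54.9% of all genes were called, so a relative given as not called may still differ.

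Of the G protein beta subunits, GNB4 alone met the rule. GNB1 was 0.21 ± 0.05 higher in JinB8 on the log2 scale (SE, adjusted p = 0.00119), GNB3 was 0.63 higher (adjusted p = 0.0262) and GNB5 had a log2 fold change of -0.68 (adjusted p = 8.42e-05). Per kilobase of annotated exon, GNB4 stood at 1.32 CPM in Jurkat, below GNB1 at 22.9 and GNB2 at 15.9 CPM. PREX1, the other Rac exchange factor of its family, went the opposite way, from 16.9 CPM in Jurkat to 50.6 CPM in JinB8 (log2 fold change 1.46, adjusted p = 3.47e-08). Per kilobase, PREX1 and PREX2 were alike in Jurkat, at 2.25 and 2.32 CPM, and stood at 6.74 and 0.0561 CPM in JinB8. The adducins ADD1 and ADD3 were also higher in JinB8, by 0.23 and 0.88 (adjusted p = 0.00917 and 0.0249).

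The Ikaros family was led by IKZF1 and IKZF2, with 15.9 and 22.1 CPM per kilobase in Jurkat, while IKZF3 had 2.79 CPM per kilobase. IKZF1 was 0.22 higher in JinB8 (adjusted p = 0.0349), and IKZF2 had a log2 fold change of 0.02 (adjusted p = 0.932). Among thymosins, TMSB10 was 1.06 higher in JinB8 (adjusted p = 1.06e-09), and TMSB4X and TMSB15B had log2 fold changes of -0.23 and 0.28 that were not called. Among glypicans, GPC1 was 0.97 higher (adjusted p = 0.00127). CADM4 was 1.3 higher (adjusted p = 5.43e-07), and PDGFRB, the one tested relative of KIT, 2.67 higher (adjusted p = 1.33e-09).

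In some families a relative was lower in JinB8 along with the member. Of guanylate-binding proteins, GBP3 had a log2 fold change of -1.23 (adjusted p = 9.24e-10) and GBP2 of -0.51 (adjusted p = 0.0428), while GBP5 stood at 3.27 CPM in both lines (log2 fold change -0.12, adjusted p = 0.571). The endophilin SH3GL3 fell from 4.32 to 0.699 CPM (log2 fold change -2.73, adjusted p = 1.18e-09), and SH3GL1 had a log2 fold change of 0.03 (adjusted p = 0.8). Of the elongases, ELOVL4 fell from 119 to 26.9 CPM (log2 fold change -2.26, adjusted p = 4.83e-13) and ELOVL5 had a log2 fold change of -0.81 (adjusted p = 0.000101). In the HOXA cluster, HOXA13, a further gene beside the member HOXA10, had a log2 fold change of -2.69 (adjusted p = 1.34e-09). HOXA5, HOXA6 and HOXA7 had means of 1.84 to 4.55 CPM in both lines and were not called. Among formins, DIAPH3 and FMNL2 had log2 fold changes of -1.24 and -1.01 (adjusted p = 8.08e-06 and 9.63e-08). DIAPH1 and INF2 were higher by 0.56 and 0.9 (adjusted p = 0.00059 and 0.000935). DAAM1, the closest relative of DAAM2, had a log2 fold change of 0.17 (adjusted p = 0.213).

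SNARE and priming genes split 7 higher and 3 lower of 22 tested. STXBP5L, a tomosyn that restrains fusion, had a log2 fold change of -2.92 (adjusted p = 1.52e-12) and VAMP1 of -0.91 (adjusted p = 5.17e-06). VAMP8 was 1.46 higher in JinB8 (adjusted p = 2.11e-06). UNC13D, which acts in killing by lymphocytes, was 0.77 higher (adjusted p = 0.00392). Of the monocarboxylate transporter family, SLC16A10 had a log2 fold change of -1.36 (adjusted p = 3.09e-10) and SLC16A6 was 1.54 higher (adjusted p = 8.45e-05). ABCG1 was 0.94 higher (adjusted p = 0.0138). The PDE4 phosphodiesterases, which degrade cyclic AMP, hold no member but are counted among the 101 genes. PDE4B and PDE4D had log2 fold changes of -4.11 and -1.87 (adjusted p = 1.66e-07 and 4.78e-07), and PDE4A was 0.54 higher in JinB8 (adjusted p = 0.0464).

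Enzymes that work with DPYD, GPD2 and SPTLC3 were called in either direction. UPP1, which cleaves uridine, was 1.2 higher in JinB8 (adjusted p = 8.05e-05). GOT1 and MDH2 of the malate-aspartate shuttle were 0.35 and 0.32 higher (adjusted p = 0.000857 and 0.00365), MDH1 had a log2 fold change of -0.26 (adjusted p = 0.025), and GPD1L had a log2 fold change of 0.18 (adjusted p = 0.0817). SPTLC1, the obligate partner of SPTLC3, was 0.28 higher (adjusted p = 0.00374), and SPTLC2 had a log2 fold change of 0.1 (adjusted p = 0.226). SPTSSA, the small subunit of the same enzyme, had a log2 fold change of -0.9 (adjusted p = 1.83e-05). Per kilobase, SPTLC1 and SPTLC2 exceeded SPTLC3 in Jurkat, at 7.26 and 4.81 against 0.669 CPM.

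Genes of lymphoid progenitors, beside the members BLK, SPINK2 and ZBTB16, were called lower 5 times and higher 4 times of 10 tested. PTCRA had a log2 fold change of -3.07 (adjusted p = 3.68e-12) and IGLL1, a surrogate light chain, of -2.82 (adjusted p = 3.99e-13). For MME, BCL11A and CD34 the values were -2.82, -1.52 and -1.32 (adjusted p = 7.04e-07, 3.15e-06 and 4.08e-05). LYL1 was 4.13 higher (adjusted p = 2.74e-11), from 0.307 to 6.01 CPM. TAL1 was the most abundant of the list and 0.54 higher (adjusted p = 3.99e-05).

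**Figure D3:**
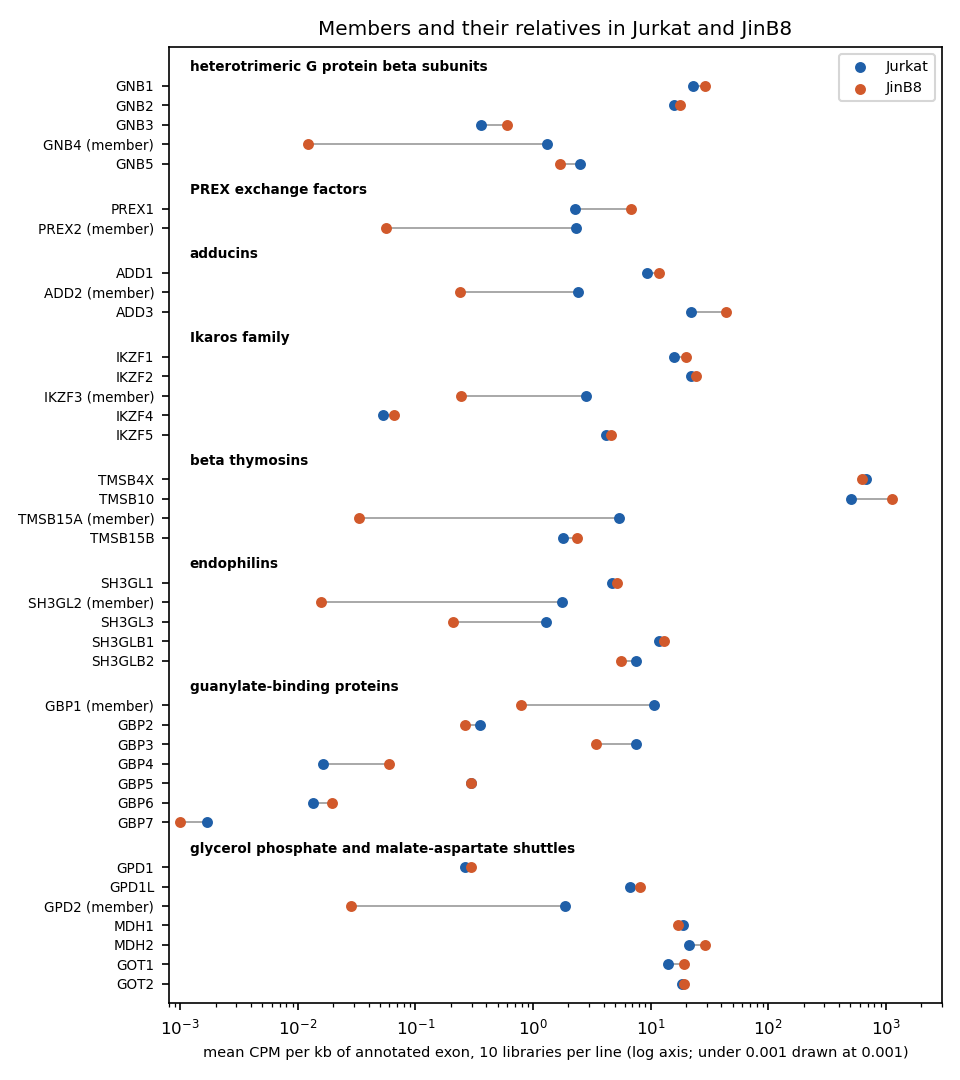
Mean CPM per kilobase of annotated exon (log axis) in Jurkat (blue) and JinB8 (orange) for members and their relatives in 8 families. Members such as GNB4, PREX2 and GPD2 have long lines between both points, while GNB1, PREX1 and IKZF1 lie at similar or higher levels in JinB8.

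Some members changed with time in culture, in both directions. The choice of members did not use the difference between times. It did use the mean over all Jurkat libraries, so a gene could enter through a high level at a single time. NEGR1, for example, had ratios to JinB8 of 3.96 at 1 h, 3.17 at 3 h and 14.6 at 6 h. Comparing 6 h with 1 h within Jurkat, edgeR called 38 of 68 tested members (55.9%), 19 higher and 19 lower. Of all tested genes, 50.5% were called (25.7% higher and 24.8% lower). At an unadjusted p under 0.05 there were 42 members, beside 56.2% of all genes. The share called is close to that of all genes, so nothing is read from it about the members. Values of the 2 times did not overlap for 46 members (67.6%), beside 54.7% of all genes. The median absolute log2 fold change was 0.78 for members and 0.4 for all genes. Members were weaker in Jurkat, with a median mean of 2.94 CPM against 22.6 CPM for all genes at 1 CPM or more. They were also chosen on a mean that a high level at a single time can lift. Nothing is read from these differences, here or at 3 h. AL390236.1, RAB13 and STAC did not pass the filter on low counts. By 3 h, 22 members were called (32.4%), 10 higher and 12 lower, beside 34.3% of all genes, and 37 members (54.4%) did not overlap, beside 39.1%. This count fell to 14 (20.6%, beside 25.6% of all genes) when the TSP1 library at 1 h was left out. It was 39 of 67 (58.2%, beside 44.4% of all genes) when Jurkat libraries were fitted alone.

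Of 16 surface and matrix genes, 7 rose and 7 fell at 6 h, beside 25.7% and 24.8% of all tested genes. Their choice used the mean over all times, so nothing is read from these counts. NEGR1, a GPI-anchored neuronal adhesion molecule, had 0.539 to 0.781 CPM in the 4 libraries at 1 h, 0.569 to 1.44 CPM at 3 h and 7.15 to 8.78 CPM at 6 h. The log2 fold change at 6 h was 3.67 ± 0.36 (SE, adjusted p = 1.69e-06, edgeR). The 6 h libraries were thus far above the 7 earlier ones, and its ratio to JinB8 was 3.96 at 1 h and 14.6 at 6 h. PHEX, a membrane endopeptidase of phosphate balance, climbed from 0.693 to 1.12 CPM at 1 h to 5.82 to 6.97 CPM at 6 h (2.85 ± 0.28, adjusted p = 1.54e-06). SVEP1, a large matrix protein, went from 0.507 to 1.07 CPM at 1 h to 3.58 to 3.96 CPM already at 3 h (2.39 ± 0.29, adjusted p = 3.52e-05). NINJ2 and C16orf89 rose by 1.57 and 2.02 at 6 h (adjusted p = 1.52e-05 and 1.28e-05). None of these genes overlapped between 1 h and 6 h.

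KIT and SPINK2 fell. KIT had 4.74 to 6.3 CPM at 1 h, 1.29 to 2.12 CPM at 3 h and 0.964 to 1.39 CPM at 6 h, a log2 fold change of -2.16 ± 0.34 (adjusted p = 0.000112). SPINK2, a protease inhibitor of blood progenitors, went from 6.42 to 8.03 CPM to 2.52 to 3.09 CPM (-1.39 ± 0.18, adjusted p = 2.38e-05). TUFT1, GPC4 and the matrix proteoglycan VCAN had log2 fold changes of -1.38, -1.01 and -0.88 (adjusted p = 0.000246, 0.00914 and 0.0179). FSTL1 and ADTRP were at -0.77 and -0.76 (adjusted p = 0.0359 and 0.0239).

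Of 14 signaling genes, 5 fell and 2 rose at 6 h, so 7 were called in all, beside 50.5% of all tested genes. DAAM2 had 57.7 to 65.9 CPM at 1 h, 22 to 26.8 CPM at 3 h and 30.7 to 32 CPM at 6 h. Its log2 fold change was -1.48 ± 0.09 at 3 h (adjusted p = 1.37e-07) and -1.07 ± 0.09 at 6 h (adjusted p = 3.93e-07), and all 6 later libraries lay below all 4 early ones. IRS2, an adaptor of insulin signaling, and CDC42EP4, an effector of CDC42, had log2 fold changes of -1.78 and -1.64 (adjusted p = 0.00193 and 0.000403). PREX2 rose by 0.47 (adjusted p = 0.0275). GNB4 had 7.95 to 10.2 CPM at 1 h and 12.4 to 14 CPM at 6 h without reaching the threshold (0.49 ± 0.2, adjusted p = 0.0512). GBP1 had similar values at both times, at 61.1 to 69.1 CPM and 60.5 to 66.5 CPM (-0.09 ± 0.09, adjusted p = 0.425).

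Of the transcription and RNA regulators, 3 of 8 rose at 6 h and none fell, beside 25.7% and 24.8% of all tested genes, and with 8 genes nothing is read from this count. IKZF3 had 12.5 to 17.8 CPM at 1 h and 33.2 to 41.5 CPM at 3 h, a log2 fold change of 1.34 ± 0.16 (adjusted p = 2.87e-05), and kept 34.2 to 42.8 CPM at 6 h. SSUH2 peaked at 3 h, with 0.456 to 0.732 CPM before and 3.87 to 5.2 CPM then (2.97 ± 0.41, adjusted p = 8.69e-05). HOXA10 rose by 0.9 at 6 h (adjusted p = 0.0151). Among enzymes, DPYD fell from 45.3 to 56.4 CPM to 27.3 to 28.8 CPM (-0.83 ± 0.1, adjusted p = 1.47e-05) and GALNT13, DERL3 and MT1E rose by 1.05, 0.95 and 1.04 (adjusted p = 0.00386, 0.0107 and 0.0031). GPD2 had a log2 fold change of -0.18 (adjusted p = 0.209).

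Some channel and vesicle genes were called in either direction. KCNQ3 and SLC16A14 had log2 fold changes of -0.95 and -1.38 at 6 h (adjusted p = 0.00103 and 0.000722), while RYR2 rose by 0.78 (adjusted p = 0.000371). UNC13C dipped at 3 h, from 1.69 to 2.49 CPM to 0.894 to 1.22 CPM, and stood at 4.13 to 4.98 CPM at 6 h (1.17 ± 0.23, adjusted p = 0.00128). EXPH5 fell by 0.88 (adjusted p = 0.000406). CAPSL rose from 0.897 to 1.47 CPM to 8.1 to 8.7 CPM (2.82 ± 0.25, adjusted p = 7.52e-07). SNORD3D was called lower at 6 h, with the scatter and the libraries at 0 given above.

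**Figure D4:**
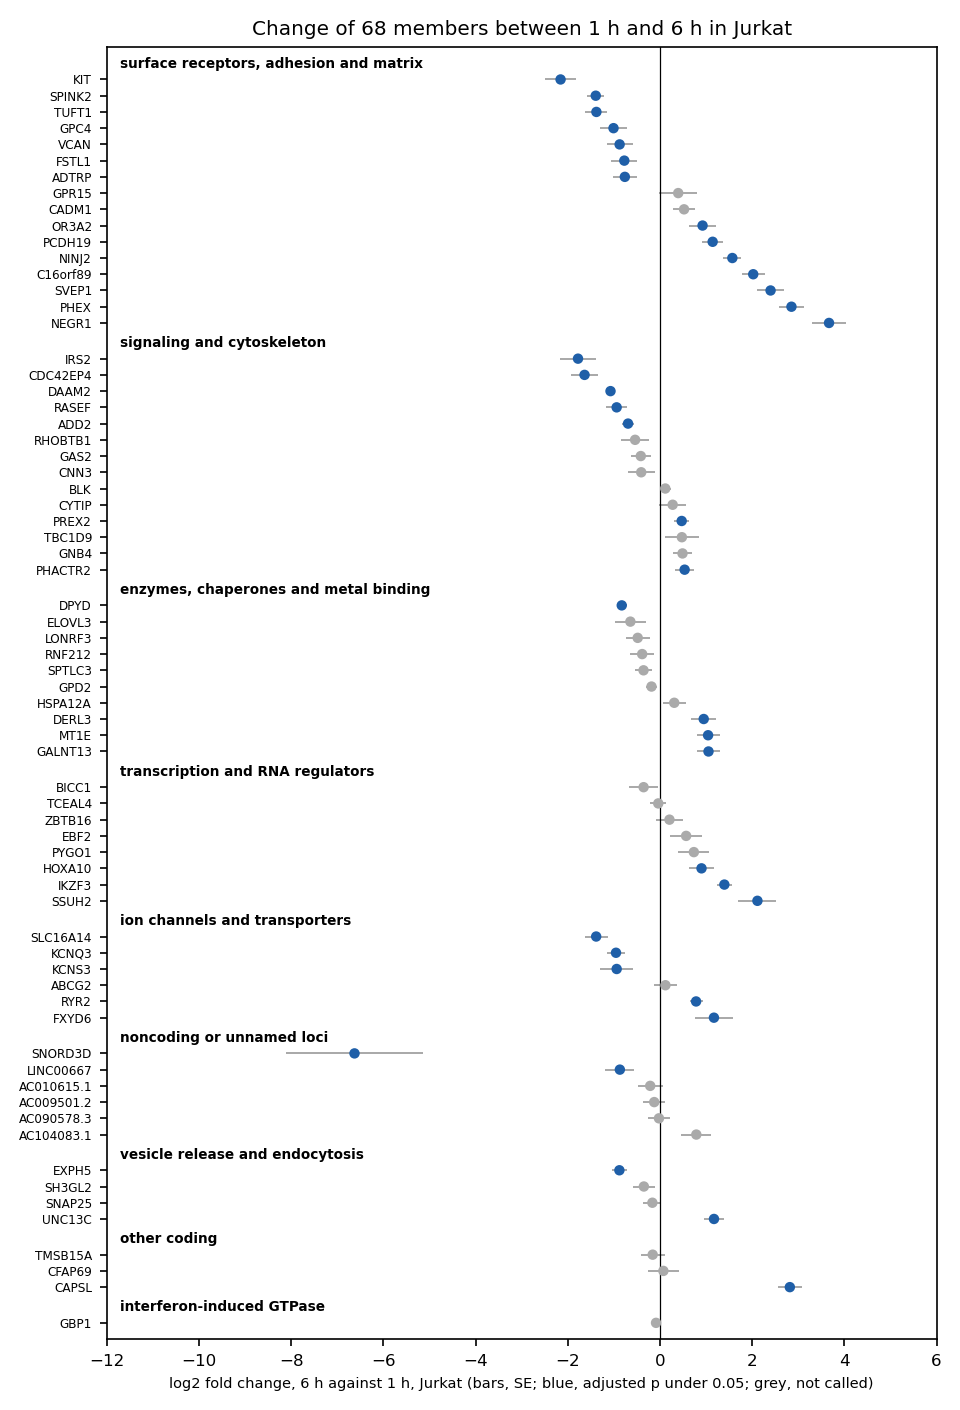
Log2 fold change of 68 members between 1 h and 6 h in Jurkat cells, grouped by role, with SE bars. Blue points have an adjusted p under 0.05 in edgeR (19 to the right and 19 to the left of 0), grey points do not, and NEGR1 at 3.67 is farthest to the right. The point of SNORD3D depends on libraries at 0 and is no measure of size.

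In the 3 treatment contrasts tested, all in Jurkat, edgeR called no member. The count was 0 of 68 members for CD3_CD28_TSP1 against TSP1 alone, where 15 genes (0.0919%) were called overall. An unadjusted p under 0.05 was reached by 2 members, CYTIP and SNORD3D, and by 816 genes (5%). TSP1 added to CD3_CD28 gave 0 members and 0 genes, with 1 member (SNORD3D) and 366 genes (2.24%) at an unadjusted p under 0.05. CD3_CD28 against untreated cells also gave 0 members and 0 genes, with 3 members (PCDH19, EXPH5 and AC090578.3) and 1359 genes (8.32%) at an unadjusted p under 0.05. DESeq2 called SNORD3D in the first and second of these contrasts, edgeR without a filter on low counts called it in all 3, and neither called another member. Treatments within JinB8 were not compared here. The untreated state has 1 library, at 1 h, so the last contrast rests on additive terms for time. CYTIP, which binds cytohesins, was 0.78 ± 0.29 higher with CD3_CD28_TSP1 than with TSP1 (adjusted p = 0.813). Against untreated cells, PCDH19 was -1 ± 0.34 and EXPH5 -0.62 ± 0.24 on the log2 scale (adjusted p = 0.565 and 0.567).

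**Figure D5:**
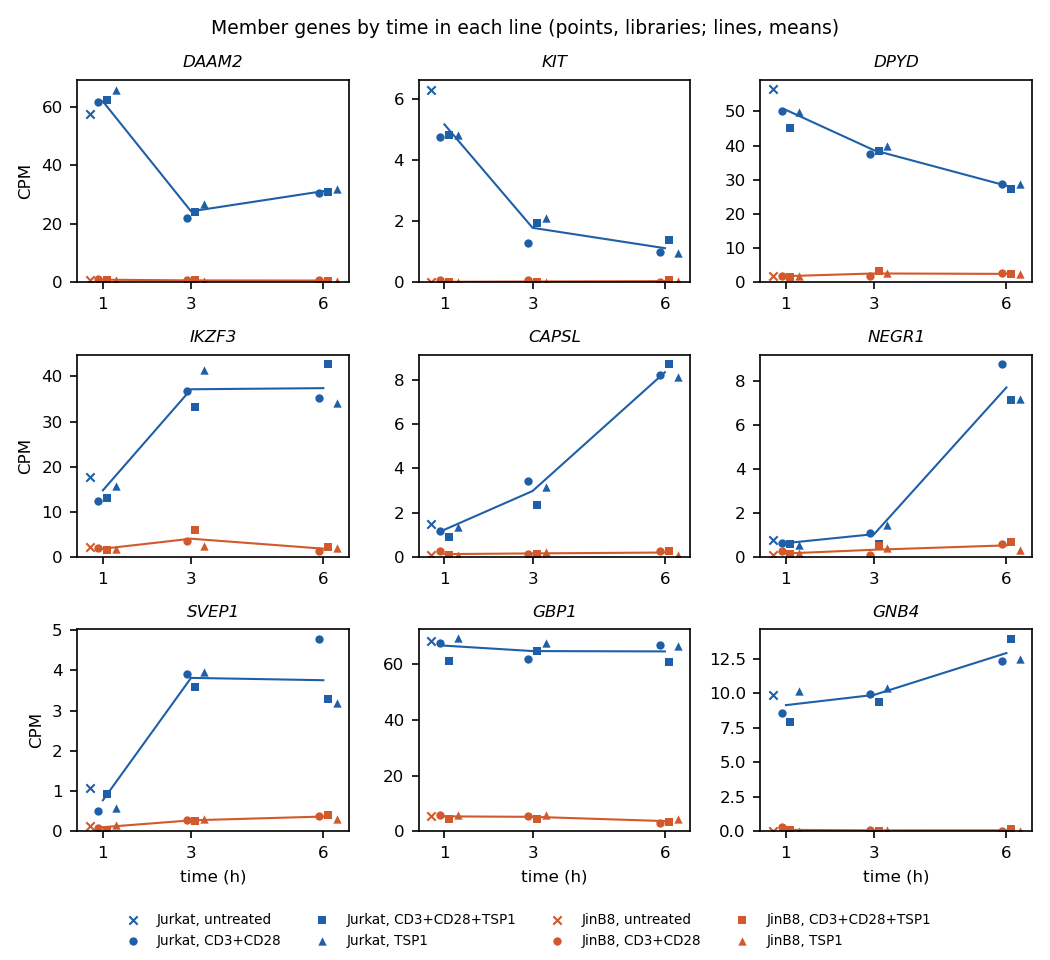
CPM of 9 members against time (1, 3 and 6 h) in Jurkat (blue) and JinB8 (orange), with 1 point per library, shaped by treatment, and lines through the means. DAAM2, KIT and DPYD fell in Jurkat, IKZF3, CAPSL, NEGR1 and SVEP1 rose, and points of different treatments at one time lie close together.

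The ratio between the lines is given by hour as a description only. The choice of members used the same values, so nothing is read from the counts below, and dependence on the hour was not tested. The ratio of line means was at least 8 at all of 1, 3 and 6 h for 43 members. It was below 8 at some time for the other 28. At 1 h 63 members met it, at 3 h 53 and at 6 h 58. Jurkat means at the 3 times lay within 2-fold of each other for 42 members and spanned more than 4-fold for 10: SNORD3D, CAPSL, PHEX, KIT, NEGR1, C16orf89, SVEP1, UNC13C, SSUH2 and RAB13. DPYD had a ratio of 27.4 at 1 h and 11.3 at 6 h. FSTL1 went from 17.5 to 3.07. The counts by hour include members with fewer than 30 JinB8 counts in all. For members with few JinB8 counts, such as KIT, single ratios by time rest on too few reads to be given. GBP1 had ratios of 12.3, 12.3 and 17.3 at 1, 3 and 6 h.

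In JinB8 few members had reads enough to follow over time. With the JinB8 libraries fitted alone in edgeR, 7 of the 71 passed the filter on low counts and 2 were called at 6 h against 1 h, beside 53.2% of all genes in that fit. BLK rose from 0.789 to 1.44 CPM at 1 h to 1.81 to 2.69 CPM at 6 h (log2 fold change 1.23 ± 0.22, adjusted p = 0.00166). GBP1 had 4.52 to 5.8 CPM at 1 h and 3.18 to 4.52 CPM at 6 h (-0.5 ± 0.16, adjusted p = 0.0291). The other 5, DPYD, DAAM2, ADD2, EXPH5 and IKZF3, were not called. DPYD had 1.71 to 1.93 CPM at 1 h and 2.35 to 2.7 CPM at 6 h (0.5 ± 0.23, adjusted p = 0.097). In the fit of both lines, DPYD was called, at 0.48 ± 0.16 (adjusted p = 0.0227).

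The fit of both lines called 17 of 42 members with at least 30 JinB8 counts (40.5%), 11 higher and 6 lower, beside 53% of all tested genes (26% higher and 27% lower), and values of both times did not overlap for 13 (31%), beside 60.4%. Most of the 42 passed the filter only through their level in Jurkat, so nothing is read from these counts. Levels of single members in JinB8 are given as values only. NINJ2 had 0.125 to 0.456 CPM at 1 h and more than 1 CPM in every library at 6 h. SVEP1 had 0.0407 to 0.166 and 0.302 to 0.42 CPM. SPINK2 had 0.57 to 0.982 and 0.168 to 0.522 CPM. None of these 3 overlapped between the times, while FSTL1, at 0.208 to 0.76 and 0.689 to 2.57 CPM, did. AC104083.1, which overlaps the guanylate cyclase gene GUCY1A1, had 0 to 0.169 and 0.491 to 0.521 CPM. Differences between the lines in changes over time were not tested, since the choice of members rests on both lines.

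Some members shared their course over the Jurkat libraries. On log2(CPM + 0.5) over 10 libraries, which all genes share, the Pearson correlation was 0.987 for NINJ2 and PHEX, 0.97 for GALNT13 and DERL3, 0.966 for KCNQ3 and KIT and 0.964 for DPYD and SLC16A14. The most opposed were DAAM2 and SSUH2, at -0.981. These values are descriptions of libraries that differ mainly by time.

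The members are spread over 21 chromosomes, with none on 14 or 21. The X chromosome carried 6 (8.45%, against 3.2% of tested genes), and chromosome 4 also 6 (8.45% against 3.35%). Within 1 Mb of another member lay 6 (8.45%, beside 5.33% of tested genes): GPD2 and CYTIP on chromosome 2, UNC13C and PYGO1 on 15, and ZBTB16 and CADM1 on 11. No pair lay within 100 kb, beside 0.867% of tested genes.

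Genes next to members were called in both directions, more of them lower than higher. Of the 133 adjacent tested genes that are no members, 43 were called lower and 24 higher. Of all tested genes, 20.6% were called lower and 19.8% higher. The 133 include 12 genes that overlap a member, given below. The median log2 fold change was -0.06 for these neighbors and -0.01 for all tested genes. With members and overlapping genes counted as neighbors, one called lower by at least 2-fold was found for 17 of 68 members (25%). The share was 8.25% of the 16255 tested genes with a position. GPD2 and GALNT13 are among the 17 only through each other, which the choice of members fixed. Leaving out neighbors that are members or overlap the gene, 10 of 68 members (14.7%) had a neighbor called lower by at least 2-fold. The share was 6.71% of the 15221 tested genes that have a neighbor of this kind. One called higher by at least 2-fold stood beside 12 of 68 (17.6%), beside 12.2% of those genes. AL592158.1, which overlaps DAAM2, had a log2 fold change of -6.18 (adjusted p = 1.04e-11), and ZNF738, which overlaps AC010615.1, of -7.66 (adjusted p = 1e-18). In both, reads of overlapping genes may be shared. Apart from overlaps, IL7R beside CAPSL had a log2 fold change of -2.44 (37.7 ± 18.8 against 7.44 ± 1.99 CPM, SD, n = 10, adjusted p = 1.71e-07 by edgeR). IL7R encodes the interleukin 7 receptor of T cells. SHTN1 beside HSPA12A and FXYD2 beside FXYD6 had log2 fold changes of -2.59 and -2.09 (adjusted p = 4.69e-09 and 3.86e-06). ACVR1C beside CYTIP and OXTR beside SSUH2 had -2.83 and -1.34 (adjusted p = 1.48e-08 and 5.34e-07). HOXA13 and GBP3, given above, are neighbors too. In the other direction, FAM167A beside BLK, GPRASP1 beside TMSB15A, ZNF493 beside AC010615.1 and RAP1GAP2 beside OR3A2 were 3.14, 2.64, 2.14 and 2.02 higher in JinB8 (adjusted p = 3.02e-09, 1.63e-09, 2.99e-11 and 1.85e-06). Of 12 overlapping neighbors in all, 6 were called lower, 1 higher and 5 not. Besides the 2 above, GUCY1A1 (overlapping AC104083.1), AC007952.4 (SNORD3D), FANCF (GAS2) and WDPCP (AC009501.2) had log2 fold changes of -2.58, -1.19, -1.04 and -0.38, and ZRANB2-AS2 (NEGR1) was 0.79 higher. The genes that overlap GNB4 (AC007620.2), LINC00667 (ZBTB14), C16orf89 (ALG1), DERL3 (SMARCB1) and NINJ2 (NINJ2-AS1) had log2 fold changes between -0.25 and 0.02 and were not called.

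Isoform counts showed how the Jurkat reads of a member were divided among its transcripts. The leading isoform held over 90% for 33 members and less than 50% for 12, and 11 members have 1 annotated isoform. For 61 members it is a protein-coding transcript. GPD2-207 held 97.8% of GPD2, IKZF3-203 98.5% of IKZF3, GNB4-201 95.9% of GNB4 and FSTL1-201 96.6% of FSTL1, whereas SPINK2-201 held 45.2% of SPINK2 and CADM1-212 44.5% of CADM1. Of 43 members with at least 30 JinB8 counts, 38 kept the same leading isoform and 5 did not. GAS2-202 took 67.2% of GAS2 in Jurkat and 0 of its 113 JinB8 counts, of which 74.3% went to GAS2-211, a transcript with no defined coding sequence. CNN3-201 took 93% of CNN3 in Jurkat and 25.1% in JinB8. The other 3 were C16orf89, LONRF3 and RAB13. Such shares are estimates by RSEM from few reads in JinB8 and carry no test.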

How the data were processed

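The deposited tables hold expected counts per gene and per isoform, which the authors obtained with RSEM after cutadapt trimming and STAR alignment (GRCh38, GENCODE version 36). The 2 columns per table that belong to no sample of the series were not used. Counts were rounded for the tests, and CPM was computed from column sums. Genes were filtered with filterByExpr (minimum count 10, minimum total 15), normalized by TMM and fitted with edgeR 4.0.16 in R 4.3.3 (glmQLFit, glmQLFTest), with Benjamini-Hochberg adjustment over 16327 genes at 0.05. Contrasts within a line came from 1 model of all 20 libraries, in which every treatment of a line had its own term and time was added per line. Replicate numbers mark the time, so these terms are the replicate block. The line comparison was fitted without a block. SE is the log2 fold change divided by the root of F. Members and gene lists were chosen with earlier results of these data known. Named genes are the 15 most abundant members, the 10 with the largest ratios, the 5 with the smallest p in each contrast within a line, members in gene lists with the leading list genes, those at the threshold and those within 1 Mb of another member. Other names were chosen after their values were seen. DESeq2 1.42.0, other filters, other scalings and leaving out each library were tried. Library totals limit a single library to 0.0945 to 0.186 CPM at 3 counts. The study's batch adjustment was not repeated, as its batches are not given in the sources used here. Promoters are from RefSeq. Some list genes are not reported here.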

Additional observations from a re-analysis of the deposited data

Results flagged for a closer look

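DPYD had opposite moves over time in the lines. Its log2 fold change between 1 h and 6 h was -0.83 in Jurkat and 0.48 in JinB8 in the fit of both lines, and the JinB8 value was not called with JinB8 libraries alone (adjusted p = 0.097, edgeR). Of 43 members examined, it was the 1 (2.33%) whose 6 h libraries all lay below the 1 h libraries in one line and above them in the other, beside 2.73% of all genes examined, so this share is no result about the members. The difference between the lines was not tested.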

How the results depend on the processing

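The number of members, 71, became 164 at a 4-fold ratio, 31 at 16-fold and 23 when every Jurkat library had to reach 8 times every JinB8 library, and lay between 66 and 72 without 1 library. It was 93 and 50 at minimum Jurkat means of 0.5 and 2 CPM, and 74 with TMM-scaled library sizes. With medians in place of means it was 85, and 8 of the 71 were lost. With at least 1 CPM in every library of the line, 22 of 43 members were called at 6 h in Jurkat (51.2%, all genes 58.8%) and 2 of 4 in JinB8 (all genes 61.1%). With the libraries of the line alone, 39 of 67 members were called at 3 h in Jurkat (58.2%, all genes 44.4%) and 2 of 7 at 6 h in JinB8 (all genes 53.2%). Without 1 library, members called ranged from 27 to 41 at 6 h and from 14 to 28 at 3 h in Jurkat, and from 12 to 19 in JinB8, as all genes called ranged from 42.2% to 57.3%, 25.6% to 43.3% and 44.1% to 58.9%. For CD3_CD28_TSP1 against TSP1, 1 member was called without the low-count filter and 1 by DESeq2, and all genes called numbered 201 without the filter, 5 with Jurkat alone, 54 by DESeq2, 0 without the replicate block and 0 to 42 without 1 library. For CD3_CD28_TSP1 against CD3_CD28, the members called were 1 without the filter and 1 by DESeq2, of 84 and 1 genes. For CD3_CD28 against untreated, 1 member and 271 genes were called without the filter, 59 genes with Jurkat alone, 7 by DESeq2 and 0 to 226 without 1 library, the last without the JinB8 CD3_CD28_TSP1 library at 3 h. The causes were not tested. Without the replicate block, 40, 26 and 16 members were called at 6 h and 3 h in Jurkat and at 6 h in JinB8, beside 53.4%, 36.8% and 53.9% of all genes. For the lines, a replicate block pairing libraries of the same treatment and time gave 8957 called genes against 6596, and 62 of the 101 relatives against 56. No member lay within 100 kb of another (0.867% of tested genes lay so near a member) and 21 (29.6%) lay within 5 Mb (21.4%). For 10 tests of single members over time in Jurkat, the 254 alternative values kept direction and call. These tests were of the 5 called members with the smallest p at 6 h and at 3 h. They were thus picked as the clearest calls and tell nothing of the other members. Depth limits many JinB8 values: 28 members had fewer than 30 counts there.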
